A study of Homo sapiens with 71 samples.

Results

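The genes described here encode collagens, laminins, integrin chains and the matrix ligands fibronectin (FN1) and nephronectin (NPNT). They were taken by symbol: COL, a number, A and a number; LAMA, LAMB or LAMC with a digit; ITGA or ITGB followed by a digit, V, L, M, X or E; FN1 and NPNT; symbols that end in P and digits were dropped. The rule found 89 of the 31012 entries of the expression table, which is held up to the symbol RAI14. They were 44 collagen genes, 12 laminin genes, 17 integrin alpha and 8 integrin beta genes, the 2 ligands, 4 noncoding genes named after integrins (all at 0 counts), and ITGB3BP and ITGBL1, which carry an integrin symbol without encoding an integrin chain. Of the 89, 30 had enough counts to be tested, 45 had counts but were too low, and 14 had none.

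The cells were HepG2, a human hepatoma line that keeps many hepatocyte functions. For 48 hours, site dishes were kept in culture medium made with 75% filtered water of a Great Lakes tributary, and control dishes in the same medium made with purified water. The 16 waters are named by the site codes of the labels: BRWI, CRMI, CROH, FRWI, GRMI, GRNY, IHIN, JRMI, LRMN, MAWI, MIWI, MROH, ORNY, RRMI, SRMI and VROH. Each had 4 dishes, except MIWI with 3, and 8 control libraries were measured. All dishes were seeded from 1 pool of cells of this line, precultured for 72 hours in medium with serum and antibiotics, so the p-values measure the spread between dishes of 1 culture. Expression was read by TempO-Seq, in which pairs of probes that meet on a transcript are joined and sequenced. One VROH library (VROH 2) held 8840 counts and was left out, which leaves 3 for VROH and 70 libraries in all. The others held 2.91 to 9.89 M counts at the sites and 8.18 to 14.52 M in the controls (M, 1e6). These totals cover only the symbols up to RAI14 and not the whole library.

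The extracellular matrix is a network of secreted proteins to which cells attach. Laminins, each built of an alpha, a beta and a gamma chain, and type IV collagen form basement membranes; fibrillar collagens form fibres, and fibronectin is secreted by hepatocytes in quantity. Integrins are receptors of 1 alpha and 1 beta chain that bind these proteins outside the cell and the actin skeleton inside it, and the pairing of chains sets which ligand is bound.

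LRMN was the site with the largest number of members called, 6 of 30, and also with the largest share of all features called, 8.64%. The 250 bases before the transcription start that RefSeq gives on GRCh38.p14 are shown for 5 of them, so that the genes that were higher (NPNT, ITGA10, ITGAV) can be compared with genes that were lower (COL24A1, COL9A2). They are read 5′ to 3′ on the strand of the gene. The NPNT window is chr4:105895221-105895470 on the plus strand, that of ITGA10 chr1:145910051-145910300 on the minus strand, that of ITGAV chr2:186589806-186590055 on the plus strand, that of COL24A1 chr1:86156773-86157022 on the minus strand and that of COL9A2 chr1:40317287-40317536 on the minus strand. RefSeq and GENCODE place the starts differently. The windows of NPNT and COL9A2 lie wholly inside the gene span that GENCODE gives. Those of ITGA10 and COL24A1 lie partly inside it, and that of ITGAV lies outside it. Capitals mark matches, on either strand, to 4 motifs: GGAATG, the core bound by TEAD factors, GGGCGG, the GC box, TGANTCA, the AP-1 site, and TATAAA, the TATA box.
NPNT: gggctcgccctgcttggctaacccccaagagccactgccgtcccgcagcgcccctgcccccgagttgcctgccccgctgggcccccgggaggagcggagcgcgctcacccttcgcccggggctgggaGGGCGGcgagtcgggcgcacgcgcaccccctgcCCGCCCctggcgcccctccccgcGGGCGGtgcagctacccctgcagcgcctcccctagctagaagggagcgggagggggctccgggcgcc
ITGA10: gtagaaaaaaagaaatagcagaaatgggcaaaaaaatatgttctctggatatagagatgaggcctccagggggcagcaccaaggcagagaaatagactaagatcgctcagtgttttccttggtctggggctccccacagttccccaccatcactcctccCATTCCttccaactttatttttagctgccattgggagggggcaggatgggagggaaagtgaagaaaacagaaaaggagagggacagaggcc
ITGAV: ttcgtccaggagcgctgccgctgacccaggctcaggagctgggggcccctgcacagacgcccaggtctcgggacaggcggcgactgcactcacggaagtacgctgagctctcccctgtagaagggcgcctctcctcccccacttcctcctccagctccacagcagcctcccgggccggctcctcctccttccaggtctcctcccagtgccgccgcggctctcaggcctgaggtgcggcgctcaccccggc
COL24A1: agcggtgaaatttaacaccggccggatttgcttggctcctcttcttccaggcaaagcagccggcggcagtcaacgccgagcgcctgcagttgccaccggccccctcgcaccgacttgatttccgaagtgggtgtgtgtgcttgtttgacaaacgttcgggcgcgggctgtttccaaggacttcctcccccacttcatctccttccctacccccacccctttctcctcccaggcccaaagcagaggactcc
COL9A2: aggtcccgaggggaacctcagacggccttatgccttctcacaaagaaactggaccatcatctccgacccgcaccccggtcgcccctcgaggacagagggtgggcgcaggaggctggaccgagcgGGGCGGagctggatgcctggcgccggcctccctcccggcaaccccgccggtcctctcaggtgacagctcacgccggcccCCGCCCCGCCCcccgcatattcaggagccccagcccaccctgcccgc

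The windows of NPNT and COL9A2, a gene that was higher and a gene that was lower, each held 3 GC boxes, and the one match in the ITGA10 window was GGAATG. Those of ITGAV and COL24A1 held none of the 4 motifs. No match overlapped another motif. GGGCGG was present in 42.6% of 35116 RefSeq windows of this length and in 15 of the 24 tested members that had one. GGAATG was present in 11.9% of all windows and in 2 of the 24, TGANTCA in 6.57% and in 1 of the 24, and TATAAA in 10.7% and in 1 of the 24. All windows of a gene are among the 35116, also for genes not tested here. Each of the 24 members counts with its most upstream window only, so the shares are of unlike sets. The GC content was 79.2% for NPNT, 48.4% for ITGA10, 70.8% for ITGAV, 60.4% for COL24A1 and 71.6% for COL9A2. A match describes letters and does not show that a factor was bound.

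Nephronectin, a secreted ligand of integrin alpha8 beta1 known from kidney development, was the member that changed at the largest number of sites. NPNT (chr4:105894775-106004027, plus strand, GENCODE positions on GRCh38) was higher than in controls at LRMN, RRMI, CROH, JRMI and BRWI, by 1.57-fold to 2.08-fold. Levels are given as CPM, counts per 1e6 counts of the tested features of a library after TMM scaling (a correction for library composition). They are not comparable between genes. NPNT had 35.8, 34.5, 35.3 and 52.6 CPM in the LRMN libraries. It had 30.5, 39.9, 34.6 and 43.1 CPM at RRMI and 34.1, 43.4, 30.7 and 38 CPM at CROH. The controls had 27.8, 19.6, 18.5, 18.1, 15.2, 18.2, 18.0 and 16.8 CPM, so that every library of these 3 sites lay above every control.

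At JRMI the libraries had 25.0, 40.1, 26.5 and 32.1 CPM of NPNT, and at BRWI they had 27.1, 37.7, 24.3 and 30.8 CPM. Both groups overlapped the controls through CTRL 1 alone, the control with 27.8 CPM; the next control had 19.6. By edgeR's quasi-likelihood test, with Benjamini-Hochberg adjustment over the 6943 features tested and calls at an adjusted p under 0.05, the log2 change of NPNT was 1.06 ± 0.14 (SE) at LRMN (adjusted p = 3.1e-07). It was 0.96 ± 0.14 at RRMI (adjusted p = 3.9e-06) and 0.94 ± 0.14 at CROH (adjusted p = 2.9e-05). It was 0.70 ± 0.14 at JRMI (adjusted p = 0.0075) and 0.65 ± 0.14 at BRWI (adjusted p = 0.018). The JRMI call was lost without JRMI 2 (0.56, adjusted p = 0.0875), and the BRWI call without BRWI 2 (0.53, adjusted p = 0.23) or without BRWI 4 (0.63, adjusted p = 0.0594).

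At 3 further sites the NPNT means lay above the control mean of 19.0 ± 3.77 CPM (SD, n = 8) without passing the test. The log2 change was 0.62 at VROH (adjusted p = 0.142), 0.53 at GRNY (adjusted p = 0.0671) and 0.46 at FRWI (adjusted p = 0.134). VROH libraries had 23.9, 27.1 and 37.1 CPM, GRNY libraries 24.8 to 29.6 and FRWI libraries 24.4 to 29.1. In order of their means the sites ran from LRMN (39.6 ± 8.73 CPM, SD, n = 4), RRMI (37.0 ± 5.59) and CROH (36.5 ± 5.47) through JRMI, BRWI, VROH, GRNY and FRWI (26.2 ± 2.09). The next mean was that of GRMI (18.8 ± 2.55), followed by CRMI, MIWI, MAWI, SRMI, ORNY, MROH and IHIN (14.2 ± 1.0). Neighbours in this order differed by less than the larger of their SDs, except FRWI and GRMI, whose libraries (24.4 to 29.1 and 16.9 to 22.2 CPM) did not overlap.

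**Figure D1:**
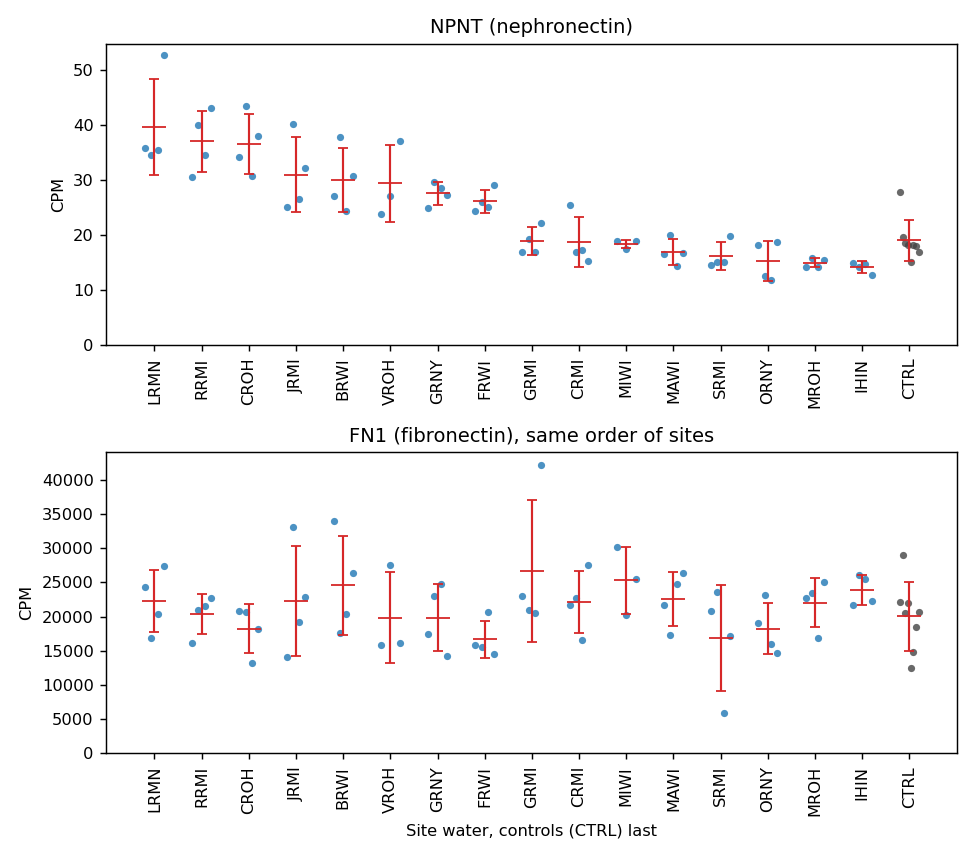
CPM of NPNT (upper panel) and FN1 (lower panel) in every library of each site water and in the controls (CTRL, grey, at the right); each point is a library and the red bars are the mean and SD of a group. NPNT lay between 30.5 and 52.6 CPM in LRMN, RRMI and CROH libraries and between 15.2 and 27.8 CPM in controls, and FN1, drawn in the same order of sites, showed no such order.

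NPNT was called at 5 sites and was the only member called at 3 or more; 2.87% of all tested features were. Its difference between the 16 waters, tested with no control in the contrast, had F = 18.1 (adjusted p = 5.5e-14). At the mean of the 16 sites NPNT was 0.27 ± 0.09 (SE) higher on the log2 scale, which did not pass (adjusted p = 0.689). ITGA8, the alpha chain of its best known receptor, was listed with 2 counts over all 71 libraries deposited.

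Fibronectin, the other ligand, was called at no site. FN1 (chr2:215360440-215436172, minus strand) took between 0.622% and 3.72% of the held counts in site libraries and between 1.41% and 2.85% in controls. Genes after RAI14 are missing from these totals, so the share of a whole library would be smaller. The highest site mean was at GRMI, with 23032, 21001, 20455 and 42238 CPM, and the lowest was at FRWI, between 14546 and 20708 CPM. The controls ran from 12475 to 29059 CPM with a median of 20601 and overlapped both. The log2 change was 0.41 ± 0.23 (SE) at GRMI (adjusted p = 0.573), and between sites FN1 had F = 1.12 (adjusted p = 0.503). The lowest library was SRMI 3, at 5881 CPM, and the highest was GRMI 4.

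Among the laminin chains, the alpha chain LAMA5 differed between waters and was called lower at CRMI, and no beta or gamma chain was called against controls. LAMA5 (chr20:62307955-62367312, minus strand) is the alpha5 chain, carried by the laminins of most adult basement membranes. It had 7.44, 5.44, 4.54 and 4.36 CPM at CRMI, against 11.7, 11.3, 10.0, 10.6, 12.5, 12.9, 13.9 and 13.1 CPM in controls. All CRMI libraries lay below all controls. The log2 change at CRMI was -1.10 ± 0.31 (SE, adjusted p = 0.021), and the call was lost without CRMI 3 (-1.0, adjusted p = 0.0646) or CRMI 4 (-0.98, adjusted p = 0.0636). All IHIN libraries (4.93, 7.56, 5.58 and 5.07 CPM) also lay below all controls, without a call in the fit with 70 libraries. Means were also low at MIWI (6.39 CPM), GRMI (7.08) and MROH (7.28), without a call. Fitted with the controls alone, IHIN (-1.04, adjusted p = 0.0036), CRMI (-1.10, adjusted p = 0.0105) and ORNY (-0.59, adjusted p = 0.0475) were called lower. LRMN was called higher in such a fit (0.65, adjusted p = 0.0269).

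At the other end LAMA5 averaged 19.1 ± 7.78 CPM at LRMN, 17.7 ± 5.91 at GRNY and 17.2 ± 8.16 at CROH (SD, n = 4 each), against 12 ± 1.33 CPM in controls (n = 8). These changes did not pass: 0.67 at LRMN (adjusted p = 0.106), 0.56 at GRNY (adjusted p = 0.257) and 0.53 at CROH (adjusted p = 0.271). In each of the 3 sites the highest library was one with little ITGB1 (described below), at 30.4 CPM in LRMN 2, 24.5 in GRNY 4 and 28.3 in CROH 3. Between sites LAMA5 had F = 6.37 (adjusted p = 1.9e-06). The 7 sites with the highest LAMA5 means were all among the 8 with the highest NPNT means.

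LAMC1, the gamma chain of the same laminins, had site means from 273 CPM (CRMI) to 365 CPM (FRWI), against 322 ± 24.2 CPM in controls. LAMB2 ran from 625.3 (ORNY) to 759 CPM (CRMI), against 700.1 ± 70.1 CPM in controls, and LAMB1 from 73.4 (SRMI) to 109 CPM (GRMI), against 101 ± 24.5 CPM in controls. None of these chains was called at a site or between sites (F = 1.41, 1.10 and 0.85). LAMC1 was called between sites when CRMI 1 and SRMI 3 were also left out (adjusted p = 1.4e-05), as were 3446 of 6916 features. Across the 16 site means LAMA5 and LAMC1 had Pearson's r = 0.76 and Spearman's rho = 0.76 (r = 0.68 without the 2 sites farthest from the median), and between libraries of the same group r was -0.15. With LAMB1 and LAMB2 the r of LAMA5 across site means was -0.41 and -0.16. LAMA3, of the laminin that anchors epithelia, had site means of 0.66 to 1.80 CPM, against 1.21 CPM in controls, and LAMB3, a beta chain of the same laminin, had 8 counts in all. Of the 12 laminin genes, 5 were tested, and the call of LAMA5 at CRMI was the only one of the 80 gene and site pairs. That is 1.25%, against 1.93% of the pairs of all features.

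Collagen genes were lower or not called: of 144 pairs of a tested collagen and a site, 6 were called lower and 0 higher, against 0.988% lower and 0.941% higher over all features. At LRMN the fibrillar collagen COL24A1 (chr1:85729233-86156943, minus strand) had 16.5, 11.6, 11.1 and 14.9 CPM. The controls had 28.0, 33.1, 19.1, 25.1, 19.2, 20.5, 19.1 and 29.6 CPM, all above the LRMN libraries. Its log2 change was -0.83 ± 0.23 (SE, adjusted p = 0.016).

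COL6A1 (chr21:45981737-46005050, plus strand), a chain of the microfibrils of type VI collagen, had 66.7, 37.9, 45.2 and 55.1 CPM at LRMN. The controls had 73.6, 85.6, 63.3, 95.6, 64.0, 75.9, 67.6 and 76.5 CPM, so that only LRMN 1 overlapped them. The log2 change was -0.55 ± 0.15 (SE, adjusted p = 0.015). COL9A2 (chr1:40300487-40317813, minus strand), a chain of the cartilage collagen type IX, had 74.9, 53.0, 50.4 and 78.4 CPM at LRMN, against 75.5 to 112 CPM with a median of 86.8 in controls, and changed by -0.52 ± 0.17 (SE, adjusted p = 0.046).

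These LRMN calls rested on few libraries. Without LRMN 2, COL24A1 changed by -0.78 (adjusted p = 0.0745), COL6A1 by -0.45 (adjusted p = 0.118) and COL9A2 by -0.46 (adjusted p = 0.187). Without LRMN 3 the values were -0.75 (adjusted p = 0.0684), -0.50 (adjusted p = 0.067) and -0.42 (adjusted p = 0.171). The COL9A2 call was lost in 6 of the 12 fits that left out 1 LRMN or control library, also without CTRL 1, CTRL 2, CTRL 6 or CTRL 8 (-0.50, -0.49, -0.53 and -0.49).

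At CRMI the collagens called lower were COL16A1, COL26A1 and COL18A1. COL16A1 (chr1:31652247-31704319, minus strand), a collagen that associates with fibrils, had 3.05, 13.3, 10.5 and 12 CPM at CRMI, against 13 to 20.5 CPM with a median of 18.9 in controls. COL18A1 (chr21:45405137-45513720, plus strand), the basement membrane collagen from which endostatin is cut, had 49.3, 123, 123 and 112 CPM at CRMI, against 129, 141, 143, 159, 147, 140, 179 and 172 CPM in controls. COL26A1 (chr7:101362820-101559024, plus strand) had 6.10, 5.13, 4.82 and 2.18 CPM at CRMI, against 5.91 to 12.2 CPM with a median of 8.63 in controls. The CRMI libraries of COL18A1 lay below all controls, while 1 CRMI library of COL16A1 and of COL26A1 each overlapped them.

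The log2 changes at CRMI were -0.91 ± 0.26 for COL16A1 (adjusted p = 0.021), -0.91 ± 0.24 for COL26A1 (adjusted p = 0.013) and -0.58 ± 0.15 for COL18A1 (SE, adjusted p = 0.013). Without CRMI 1, COL16A1 changed by -0.56 (adjusted p = 0.178) and COL18A1 by -0.34 (adjusted p = 0.137), so the library described below as standing apart set the size of both. COL26A1 lost its call without CRMI 4 (-0.67, adjusted p = 0.0822).

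Of the 9 tested collagens, 5 differed between waters, where 37.8% of all features were called: COL6A1 (F = 3.96, adjusted p = 5.0e-04), COL24A1 (3.69, adjusted p = 1.0e-03), COL26A1 (3.57, adjusted p = 0.0014), COL18A1 (3.24, adjusted p = 0.0032) and COL9A2 (2.18, adjusted p = 0.047). The highest means of COL6A1, COL24A1 and COL9A2 were all at IHIN (88.1, 33.5 and 109 CPM) and the lowest all at LRMN (51.2, 13.5 and 64.2 CPM). Controls averaged 75.3, 24.2 and 92.3 CPM. FRWI means were close to those of LRMN, at 52.6, 15.8 and 66.6 CPM. All FRWI libraries lay below all controls for COL6A1 and COL9A2, without a call in the fit with 70 libraries. Fitted with the controls alone, FRWI was called lower for COL6A1 (-0.53, adjusted p = 0.0318) and COL9A2 (-0.48, adjusted p = 0.0469). CROH was called lower in such a fit for COL24A1 (-0.60, adjusted p = 0.0471) and COL9A2 (-0.41, adjusted p = 0.0397). COL26A1 and COL18A1 were lowest at CRMI (4.56 and 102 CPM) and highest at GRNY and LRMN (11.2 and 184 CPM), against 8.81 and 151 CPM in controls. COL4A5, the one tested type IV chain, had site means of 3.64 to 5.04 CPM, against 3.96 ± 1.06 CPM in controls, and was not called.

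**Figure D2:**
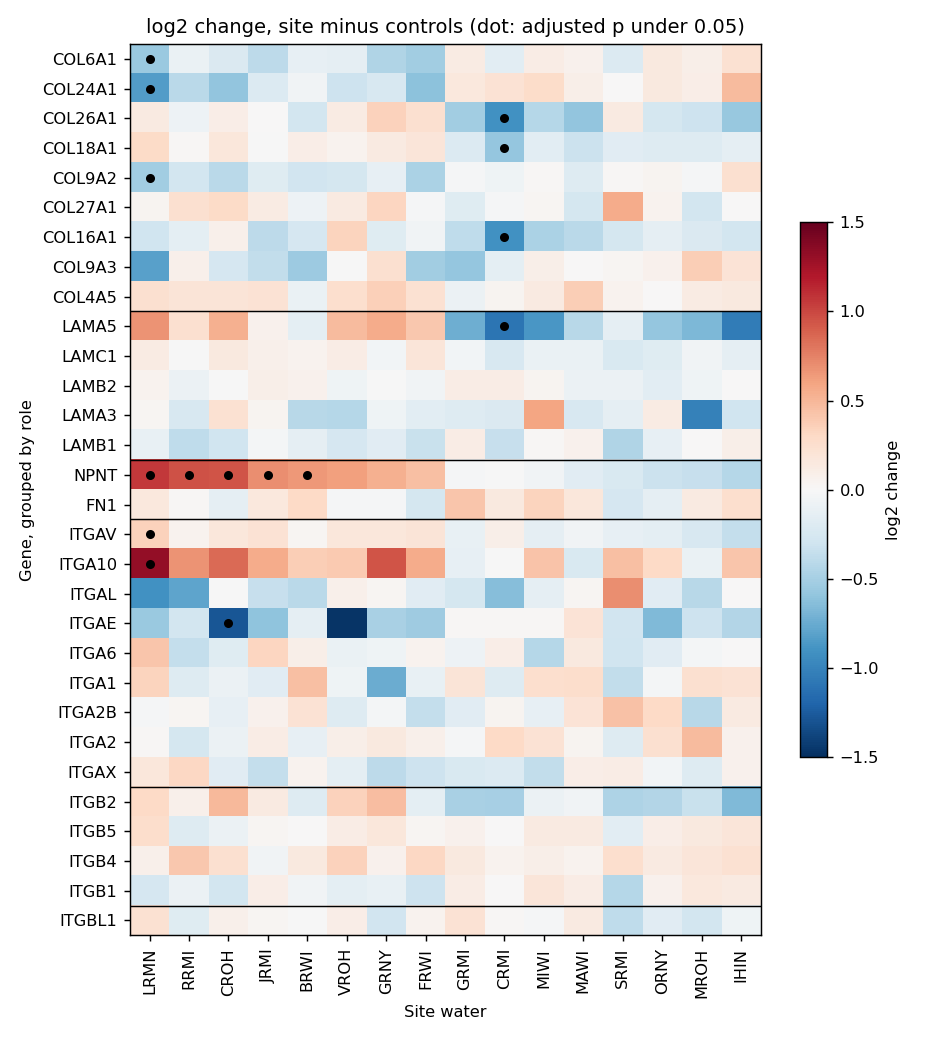
Log2 change of each of the 30 tested genes (rows, grouped as collagens, laminins, ligands, integrin alpha chains, integrin beta chains and ITGBL1) at each site water minus controls (columns, in falling order of NPNT); colour gives the change from -1.5 to 1.5 and dots mark an adjusted p under 0.05. The 15 dots fall at 6 sites, 6 of them at LRMN and 4 at CRMI, where 8.64% and 7.32% of all features were called. The NPNT row holds 5.

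Among the integrin receptors, 2 alpha chains rose at LRMN and 1 fell at CROH, while no beta chain passed a test. These calls were 2.08% of 144 alpha chain and site pairs and 0% of 64 beta chain pairs. Over all features 1.93% of pairs were called, so the share of integrin pairs was near the background. ITGA10 (chr1:145891208-145910189, minus strand), the alpha chain of a collagen receptor best known from cartilage, had 3.96, 10.4, 4.24 and 7.16 CPM at LRMN. The controls had 1.76 to 3.39 CPM with a median of 2.72, all below the LRMN libraries. The log2 change was 1.32 ± 0.28 (SE, adjusted p = 9.8e-04), a 2.49-fold difference, and without LRMN 2 it was 0.98 (adjusted p = 0.0506). ITGA10 also differed between sites (F = 2.80, adjusted p = 0.0097), a call lost without LRMN 2 (adjusted p = 0.0528). It stood at 5.02 ± 0.71 CPM at GRNY and 4.58 ± 2.13 at CROH (SD, n = 4 each), where the changes of 0.94 and 0.85 did not pass (adjusted p = 0.0986 and 0.0749). Both were called when CRMI 1 and SRMI 3 were also left out (adjusted p = 0.0181 at GRNY and 0.0288 at CROH). Both were also called when a site was fitted with the controls alone (adjusted p = 0.0411 and 0.0312), as was ITGA10 at RRMI (0.68, adjusted p = 0.0488).

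ITGAV (chr2:186590065-186680901, plus strand), whose receptors recognise the RGD sequence of fibronectin and other ligands, had 209, 234, 241 and 215 CPM at LRMN. The controls had 204, 136, 197, 153, 190, 178, 187 and 166 CPM, all below the LRMN libraries. The log2 change was 0.35 ± 0.10 (SE, adjusted p = 0.024). It was lost without LRMN 2 (0.32, adjusted p = 0.114), LRMN 3 (0.31, adjusted p = 0.0883), CTRL 2 (0.30, adjusted p = 0.0701) or CTRL 4 (0.32, adjusted p = 0.0522). Between sites ITGAV had F = 4.80 (adjusted p = 6.4e-05), with means from 138 CPM at IHIN to 225 CPM at LRMN.

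ITGAE (chr17:3714628-3801243, minus strand), the alpha chain of the E-cadherin receptor of lymphocytes, had 0.721, 0.351, 0.409 and 0.620 CPM at CROH, against 0.796 to 1.80 CPM with a median of 1.29 in controls. The groups did not overlap, and the log2 change was -1.28 ± 0.39 (SE, adjusted p = 0.048), which was lost in 10 of the 12 fits without 1 CROH or control library. The 2 fits that kept it were those without CTRL 1 and without CTRL 8. At VROH the fitted change was -1.47 with an adjusted p of 0.295.

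ITGB1 (chr10:32900319-33005792, minus strand), the beta chain shared by the receptors for collagen, laminin and fibronectin, had site means from 231 CPM (SRMI) to 352 CPM (MIWI), against 311 ± 43.8 CPM in controls, and F = 0.44 between sites. ITGB5, which pairs with ITGAV, ran from 46.3 (RRMI) to 63.3 CPM (LRMN), against 52.7 ± 7.77 CPM in controls. ITGB4, which pairs with ITGA6 in hemidesmosomes, was above the control mean of 15.5 ± 3.17 CPM at 15 of 16 sites but by at most 0.41 on the log2 scale, and was not called. ITGA6 had site means of 6.55 to 11.8 CPM, against 8.86 ± 1.68 CPM in controls. ITGA1, a collagen receptor chain, was not called in the fit with 70 libraries, where it had 5.37 CPM in CRMI 1 against 207 to 243 CPM in the other CRMI libraries. With CRMI 1 and SRMI 3 also left out it was called between sites (adjusted p = 0.0011), as were 3446 of 6916 features. In that fit ITGA1 was also called lower at GRNY (-0.74, adjusted p = 0.0115).

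**Figure D3:**
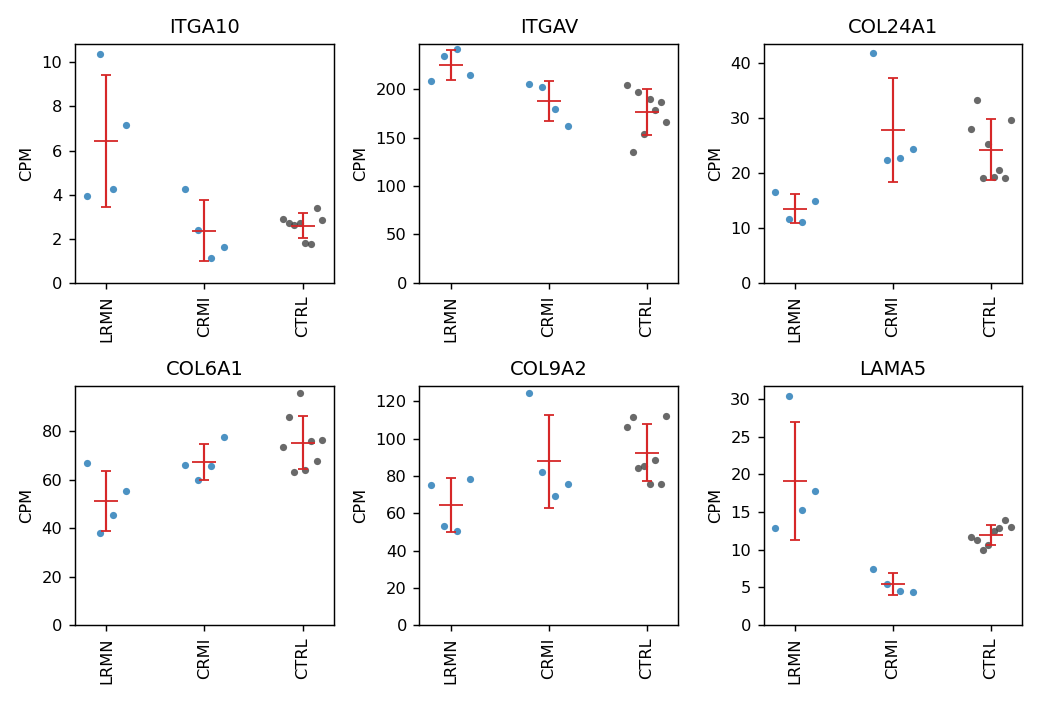
CPM of 6 members in the libraries of LRMN, CRMI and the controls (CTRL); each point is a library, and red bars are the mean and SD. ITGA10 and ITGAV lay above all controls in every LRMN library, COL24A1 lay below all controls there, at most 1 LRMN library of COL6A1 and of COL9A2 reached the control range, and LAMA5 lay below all controls at CRMI.

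Of the 59 members that were not tested, the 45 with counts had between 1 and 369 counts in total over the 71 libraries, with a median of 18. The common type IV collagen chains COL4A1 and COL4A2 had 28 and 288 counts, the type I chains COL1A1 and COL1A2 had 19 and 39, and COL3A1 had 10. ITGA5, the alpha chain of the main fibronectin receptor, had 5 counts, and ITGA3, of a laminin receptor, had 56. COL6A2 and COL6A3, the partners of COL6A1, had 18 and 42. Probe efficiency differs between genes in a targeted assay, so low counts do not show that a transcript was absent. COL4A2 had 5 counts in the 4 ORNY libraries (0 to 3 each), against 69 in the 8 controls (5 to 11 each), a ratio per library total of 0.192 with a 95% interval of 0.0603 to 0.469 that covers counting error only; it was chosen after its values were seen.

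Over the 30 tested members and 16 sites, 15 of 480 pairs were called (3.125%), 7 higher and 8 lower, against a background of 1.93% of all feature and site pairs. At least 1 call fell on 11 of 30 members (36.7%), against 19% of all features. At LRMN 6 members were called and 8.64% of all features; at CRMI 4 members and 7.32%; at CROH 2 members and 4.16%. At RRMI, JRMI and BRWI the one member called was NPNT, and 1.74%, 1.09% and 0.475% of features were called. Without LRMN 2 the 15 pairs became 10, and without LRMN 3 they became 11.

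At the other 10 sites edgeR called 0 members. The share of all features called was 3.17% at SRMI, 1.58% at ORNY, 1.56% at MAWI, 0.533% at GRNY, 0.331% at FRWI, 0.115% at GRMI, 0.101% at IHIN, 0.0144% at MIWI and at MROH, and 0% at VROH. At an unadjusted p under 0.05 there were 5 of 30 members at GRNY, IHIN and MROH, where 17.9%, 11.2% and 5.42% of all features were. There were 4 at FRWI (13.7% of all features) and 3 at SRMI (16.8%). There were 2 at each of GRMI (9.72%), MAWI (14.1%), ORNY (12.6%) and VROH (6.91%), and 1 at MIWI (4.35%). DESeq2 called NPNT at GRNY (adjusted p = 0.033) and no other member there. At the mean of the 16 sites edgeR and DESeq2 each called 0 members. Of all features edgeR called 0.101%. An unadjusted p under 0.05 in edgeR was found for 3 of 30 members (10%), against 204 of all 6943 features (2.94%). The median log2 change of the members at the mean of sites was -0.04, and that of all features -0.01.

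Between the waters themselves, 9 of the 30 members were called (30%), against 37.8% of all 6943 features. The median F was 1.55 over the members and 1.71 over all features, so the share of members that differed was not above the background. The 9 were NPNT, LAMA5, ITGAV, ITGA10 and the 5 collagens named above. At LRMN the median size of a log2 change was 0.27 over the members and 0.25 over all features.

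Some libraries differed from the rest of their site in these genes. Of 3342 well-counted features, 477 lay 3 or more log2 units under their site in CRMI 1 and 87 in SRMI 3. The members among them were ITGA1 in CRMI 1 and ITGB1 in SRMI 3. JRMI 2, without which NPNT lost its call at JRMI, had 60 such features. GRNY 2 had 27, and FRWI 1 and LRMN 4 had 24 each. No member was among the features of these libraries. ITGB1 was at 11.2 CPM in SRMI 3, 58.2 in GRNY 4, 98.6 in LRMN 2 and 137 in CROH 3, which is 0.0368, 0.16, 0.313 and 0.461 of the mean of the other libraries of the site. In the same 4 libraries LAMA5 was at 21.1, 24.5, 30.4 and 28.3 CPM, the highest of each site, and COL6A1 was at 34.0, 45.4, 37.9 and 48.2 CPM, the lowest of each site. ITGA10 was highest of its site in SRMI 3 (5.92 CPM), LRMN 2 (10.4) and CROH 3 (7.63) and not in GRNY 4 (5.36). NPNT was at 15.1, 27.2, 34.5 and 30.7 CPM there, within the range of its site except that LRMN 2 and CROH 3 were the lowest of theirs.

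Without these 4 libraries, an alternative chosen after seeing the data, LAMA5 was called lower at IHIN as well as CRMI (-1.05, adjusted p = 0.0345), COL6A1 lower at FRWI as well as LRMN (-0.52, adjusted p = 0.0213), and ITGAL, the alpha chain of a leukocyte integrin, lower at LRMN (-1.66, adjusted p = 0.0114). With all 70 libraries the change of ITGAL at LRMN was -0.91 and did not pass (adjusted p = 0.124). Without the 4 libraries ITGA10 no longer differed between sites by the test (adjusted p = 0.056). NPNT was still called at its 5 sites, and ITGA10, ITGAV, COL24A1 and COL6A1 at LRMN. What sets these libraries apart was not tested.

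**Figure D4:**
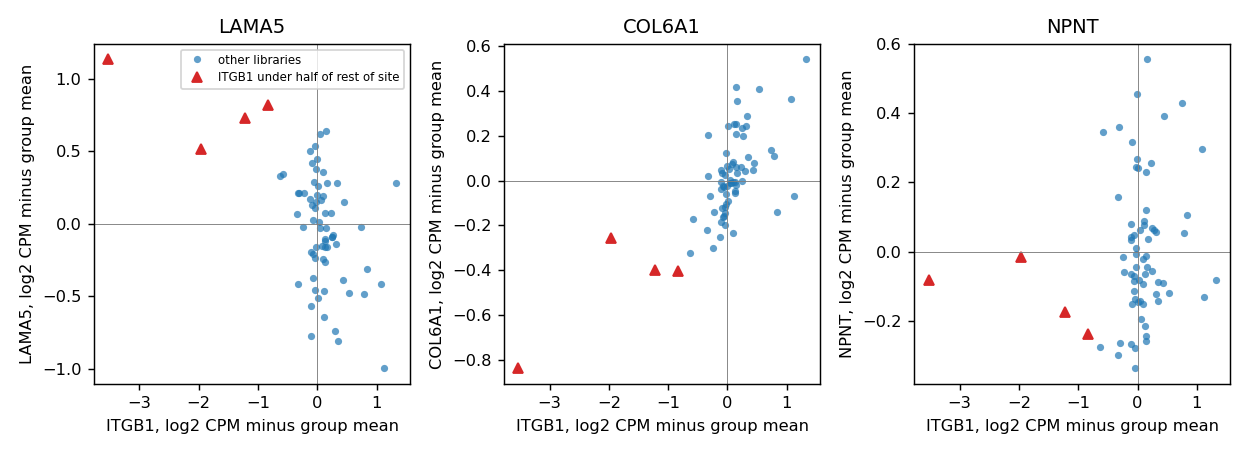
Deviation of LAMA5, COL6A1 and NPNT (vertical axes) and of ITGB1 (horizontal axes) from the mean of their own group, as log2 CPM, in 70 libraries; red triangles are the 4 libraries with the least ITGB1 against the rest of their site. The triangles lie high for LAMA5 and low for COL6A1, and within the other libraries for NPNT.

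Within groups, some pairs of members also varied together, while others had r near 0, such as COL16A1 and ITGB1 (r = -0.018). Over the 70 libraries, after the group means were taken off log2(CPM + 0.5), FN1 and LAMB1 correlated with Pearson's r = 0.86 and Spearman's rho = 0.79, and r was 0.80 without the 4 libraries. FN1 and ITGB1 had r = 0.75 (rho = 0.77, and r = 0.73 without the 4), and ITGAV and COL6A1 had r = -0.76 (rho = -0.74, and r = -0.71 without the 4). For LAMA5 and ITGB1, r was -0.55 and only -0.20 without the 4. These values describe 435 pairs of members measured in the same libraries, which share library and depth, and carry no p.

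Across the 16 site means LAMA5 and COL24A1 had r = -0.91 (rho = -0.93, and r = -0.91 without the 2 sites farthest from the median). Between libraries of the same group their r was -0.45, and -0.25 without the 4 libraries low in ITGB1. ITGAV and COL6A1 had r = -0.85 (rho = -0.82, and r = -0.79 without 2 sites). LAMA5 and COL26A1 had r = 0.89 (rho = 0.90, and r = 0.87 without 2 sites), a relation that was weaker between libraries of the same group (r = 0.40). These 3 pairs were picked from the 435 and join genes that were each called between sites. Other pairs had similar values, such as COL24A1 with COL9A2 (r = 0.90) and COL18A1 with LAMC1 (r = 0.90). Chains known to pair in one receptor gave values of either sign across sites. ITGB1 had r = 0.37 with ITGA1 (rho = 0.45), 0.43 with ITGA2 (rho = 0.38), 0.16 with ITGA6 (rho = -0.02), -0.29 with ITGAV (rho = -0.59) and -0.45 with ITGA10 (rho = -0.63). ITGAV and ITGB5 had r = -0.01 (rho = -0.12), and ITGA6 and ITGB4 had r = -0.50 (rho = -0.44). ITGB2 had r = -0.17 with ITGAL (rho = 0.03) and 0.04 with ITGAX (rho = -0.01).

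Other genes of matrix and adhesion were counted in 6 lists fixed for this description. Between sites, 33.3% to 66.7% of the tested genes of a list were called, against 37.8% of all features. At the mean of sites no gene of the lists was called. Of 6 tested basement membrane genes outside the families, 4 were called between sites. The linker protein NID1 had F = 8.08 (adjusted p = 6.7e-08) and was called higher at LRMN. FREM1 was higher at LRMN (0.56, adjusted p = 0.0299) and lower at ORNY (-0.68, adjusted p = 0.0423). Of 21 collagen-modifying enzymes and chaperones 7 were called between sites (33.3%), which was not above the share of all features. They included the lysyl hydroxylase PLOD1 (F = 12.2, adjusted p = 7.8e-11), which was higher at LRMN (0.47, adjusted p = 0.0057) and lower at SRMI (-0.50, adjusted p = 0.0096) and ORNY. Of 7 tested matrix metalloproteinases 3 were called between sites.

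Among 27 cytoplasmic adhesion genes 15 were called between sites. The kindlin FERMT1, which helps to activate integrins, was higher at CRMI (0.52, adjusted p = 0.0234) and lower at JRMI (-0.62, adjusted p = 0.0384). Of 7 other matrix receptors 4 were called, with the glypican GPC6 lower at ORNY, SRMI, MAWI and CRMI (F = 12.2). Of 15 other integrin ligands 9 were called, with CCN2 (F = 26.0, adjusted p = 5.1e-17) at 741 ± 309 CPM at LRMN and 126 ± 18.2 CPM at CRMI (SD, n = 4 each), against 314 ± 76.8 CPM in controls (n = 8). The share of all features called between sites was 37.8%, as given above.

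The label of a hepatoma line was matched by its markers: 10 of 10 hepatocyte or hepatoma markers had counts, and their summed level was 121485 to 225915 CPM in site libraries and 139725 to 196953 CPM in controls. Fibroblast or stellate markers, of which COL1A1, COL1A2 and COL3A1 are also members here, summed to 18.0 to 63.7 CPM at the sites and 38 to 61.5 CPM in controls, and most of that was ACTA2. The endothelial marker KDR, the leukocyte marker PTPRC and the squamous marker KRT6A were at 0 counts in every library. Other markers of these lists had counts. Over the 71 libraries, the endothelial PECAM1 and CDH5 had 662 and 465 counts, and the immune CD68 and CD14 had 30868 and 1290. Endothelial markers summed to 0.658 to 4.29 CPM at the sites and 1.86 to 3.75 CPM in controls. The 5 immune markers summed to 2672 to 3869 CPM at LRMN, 551 to 1024 CPM at CRMI and 1476 to 2066 CPM in controls, nearly all of it LYZ, and the part of LYZ in the LRMN and CRMI results was not tested. In bulk libraries such as these, fewer cells that make a transcript and less of it per cell cannot be told apart.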

How the data were processed

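TempO-Seq libraries of HepG2 cells were compared between 16 site waters and purified water. The authors deposited 1 table of estimated counts (expected counts) per gene; Salmon and the build GRCh38 are named in the submitters' processing notes, while the sources used here do not give its version, the probe positions or any scaling. Low values (under 20) were whole multiples of what 1 read is worth, to a tolerance of 0.02, in a median of 93.4% of cases per library (lowest 91.6%), so they were used as counts. The table is held up to the symbol RAI14; later symbols were not analysed here. Site and number matched columns to labels, except for MIWI and GRMI 1, where library numbers are those of the columns; 0 columns belonged to no sample.

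Rounded counts were analysed in R 4.3.3 by edgeR 4.0.16: TMM, filterByExpr with a minimum count of 10 (6943 of 12425 features kept), 1 model with 17 group means, 70 libraries and 53 residual degrees of freedom, and quasi-likelihood tests of each site, the mean of sites, and the sites among themselves. A library under 1% of the median total (VROH 2, 0.153%) was left out. Calls are Benjamini-Hochberg adjusted p under 0.05 over all features of a comparison. Errors of log2 changes are SE, those of CPM are SD. Alternatives were DESeq2 1.42.0, RLE size factors, no filter, all 71 libraries, other libraries left out, a replicate block, a site and the controls alone, and leaving out each library. The procedure was tested on simulated data.

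The genes and lists were chosen with earlier results of these data known. Named were FN1 and NPNT, members called between sites, the 2 largest rises and falls called per site, chains of listed complexes, and up to 3 genes per list by p between sites; some results that the rule selects are not reported here; further members called at LRMN and CRMI, and correlations, were added to account for every call. Without probe positions in the sources used here, it could not be checked whether probes of overlapping genes, such as COL4A1 and COL4A2, lie where they overlap. The same holds for antisense partners. Positions are from GENCODE release 29 (GRCh38), upstream sequences from RefSeq (GRCh38.p14). Intervals cover counting error only, because counts were pooled over the libraries of a group and the spread between dishes was left out. PCR copies of 1 molecule cannot be recognised without molecular identifiers, so the counting error itself may be larger.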

Additional observations from a re-analysis of the deposited data

Results flagged for a closer look

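Of the members, 9 differed between the 16 waters by the F test: NPNT (F = 18.1), LAMA5 (6.37), ITGAV (4.80), COL6A1 (3.96), COL24A1 (3.69), COL26A1 (3.57), COL18A1 (3.24), ITGA10 (2.80) and COL9A2 (2.18). The weakest of these, COL9A2, lost its call in 50 of the 70 fits that left out 1 library (highest adjusted p = 0.104).

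There were 5 single libraries that lay far from the rest of their group, among 50 groups of values checked; chance alone marks about 1 in 20. LRMN 4 had 52.6 CPM of NPNT, against 34.5 to 35.8 CPM in the other LRMN libraries. SRMI 4 had 19.8 CPM of NPNT, and the other SRMI libraries 14.6 to 15.1 CPM. GRMI 4 had 42238 CPM of FN1, and the other GRMI libraries 20455 to 23032 CPM. CRMI 1 had 49.3 CPM of COL18A1, and the other CRMI libraries 112 to 123 CPM. Control 1 had 27.8 CPM of NPNT, and the other controls 15.2 to 19.6 CPM; without it the log2 change of NPNT was 1.15 at LRMN.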

How the results depend on the processing

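No direction was reversed under any alternative. The 15 gene and site pairs called became 11 with all 71 libraries, 21 without VROH 2, CRMI 1 and SRMI 3 (13 of the 15 among them), 16 without the 4 libraries low in ITGB1 (13 of the 15; this alternative was chosen after seeing the data), 14 with RLE size factors, 12 with no filter on low counts, 22 with a site and the controls alone (12 of the 15) and 15 with DESeq2 (14 of the 15). The 9 members called between sites became 7, 11, 8, 9, 8 and 9 in the same order, without the fits of single sites, which give no such test. Of all features, 2624 of 6943 were called between sites in the main fit. This became 2073 of 6947, 3446 of 6916, 2785 of 6913, 2634 of 6943, 2271 of 12346 and 3035 of 6943 in that order. With no filter, 75 members were tested in place of 30. At the mean of sites the count was 0 throughout. Leaving out 1 library at a time gave 10 to 18 pairs, 8 to 12 members between sites and 0 at the mean of sites. NPNT stayed called at LRMN, RRMI and CROH in each of these fits. With no filter its BRWI call was lost (0.62, adjusted p = 0.0764) and COL4A2 at ORNY was added. ITGAE at CROH was lost in 5 of 8 alternatives, and COL9A2 and COL18A1 in 3 each. The replicate number as a block gave 16 pairs, the 15 and NPNT at GRNY (0.53, adjusted p = 0.041). It gave 9 members between sites, where 2620 of 6943 features were called, and 0 at the mean of sites. The numbers do not pair the dishes: of 450 same-numbered pairs of libraries, 138 had deviations correlated above 0.1, and the median correlation was 0.00799, against 0.00614 for other numbers. Depth limits low members: at about 1 CPM (ITGAE, LAMA3) a library holds a few reads, and the 45 untested members cannot show a change of ordinary size.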
